A study of Caenorhabditis elegans with 24 samples.

Results

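Genes for the proteins of the cytosolic ribosome were followed in DamID profiles of the chromatin protein BAF-1 from *C. elegans*. Members were all genes whose symbol is rpl- or rps- followed by a number, that is, genes for proteins of the large (rpl-) and the small (rps-) subunit. There were 78 of them, 47 for the large and 31 for the small subunit, among the 46374 genes of the tables, and all 78 are protein-coding. DamID joins the protein under study to Dam, a bacterial adenine methyltransferase that marks GATC sites close to where the protein binds, and a GFP::Dam fusion, which is not targeted to chromatin, serves as the control. The value of a gene is the log2 of the fusion reads over the GFP::Dam reads, centered so that 0 is the median tested gene of a column, and a negative value is a lower ratio than that gene has.

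There were 4 fusion groups with 3 replicates (rep1 to rep3), each with its own GFP::Dam group of 3, which gave 24 libraries and 12 columns of ratios. Dam::BAF-1 was expressed in wild-type animals and Dam::BAF-1(G12T), which models the mutation of Nestor-Guillermo progeria syndrome, in *baf-1(G12T)* animals. Each GFP::Dam control came from animals of the same *baf-1* genotype as its fusion group, wild-type or *baf-1(G12T)*. A difference between the proteins therefore cannot be told apart from one between the genotypes. The Dam fusions were inserted in single copy on chromosome II under the *hsp16.41* promoter and became active only where a FLP recombinase had removed a cassette, driven by *dpy-7p* in the hypodermis (hyp) or by *nhx-2p* in the intestine (int). DNA was taken from 4000 L4 larvae grown for 48 h at 20 °C. The study describes its DamID replicates as independent biological ones. The tables hold ratios without counts, so the depth behind the value of a gene cannot be read from them. The read totals that the study states per library did not enter the values or the tests.

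BAF-1 binds DNA and links chromatin to lamin and to LEM domain proteins at the nuclear envelope. In *C. elegans* the arms of the autosomes lie at the nuclear periphery and the centers in the interior, and active genes tend to stay away from the envelope. Ribosomal protein genes are among the most strongly and widely transcribed genes of any growing cell, and their products are needed in equal amounts.

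GATC sites set what DamID can see. The window of a member, the gene with 500 bp at each end, held a median of 6 sites (1 to 25), against 9 for all protein-coding genes, in windows of 1765 and 3001 bp in the median. Per kb the members had slightly more sites, 3.18 against 2.80. In the 250 bases before the annotated start, 25 of 78 members (32.1%) held a GATC site, compared with 38.4% of all 19889 protein-coding genes. GATC reads the same on both strands and cannot overlap itself. The following stretches are the 250 bases upstream of the 2 members with the lowest and of the 2 with the highest mean over the 4 groups among tested members on chromosomes II, III, IV, V and X, from the RefSeq sequence of WBcel235 and on the strand of the gene, with GATC in capitals. They run over III:6374998-6375247 (minus strand) for *rps-13*, IV:7926392-7926641 (minus) for *rps-2*, II:11092463-11092712 (plus) for *rpl-42* and IV:12268745-12268994 (plus) for *rpl-34*.
rps-13: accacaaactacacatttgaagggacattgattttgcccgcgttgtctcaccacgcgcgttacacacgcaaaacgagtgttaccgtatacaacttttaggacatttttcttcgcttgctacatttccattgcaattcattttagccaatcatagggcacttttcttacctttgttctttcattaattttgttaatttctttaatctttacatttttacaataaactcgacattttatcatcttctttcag
rps-2: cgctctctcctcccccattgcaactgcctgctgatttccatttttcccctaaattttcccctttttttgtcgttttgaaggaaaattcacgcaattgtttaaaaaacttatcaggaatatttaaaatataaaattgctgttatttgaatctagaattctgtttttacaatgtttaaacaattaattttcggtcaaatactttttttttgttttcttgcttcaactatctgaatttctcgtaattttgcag
rpl-42: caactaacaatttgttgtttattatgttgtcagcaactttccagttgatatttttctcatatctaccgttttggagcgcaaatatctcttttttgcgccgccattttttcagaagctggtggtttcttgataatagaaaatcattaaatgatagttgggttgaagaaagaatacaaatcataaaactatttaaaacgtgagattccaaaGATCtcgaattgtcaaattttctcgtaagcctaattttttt
rpl-34: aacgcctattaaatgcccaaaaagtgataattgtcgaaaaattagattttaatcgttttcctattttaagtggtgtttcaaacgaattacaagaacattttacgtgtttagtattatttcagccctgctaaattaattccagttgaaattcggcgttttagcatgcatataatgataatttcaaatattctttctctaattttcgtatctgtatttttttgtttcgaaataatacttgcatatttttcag
Of these 4 stretches only that of *rpl-42* holds a GATC site.

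Of the 78 members, 74 were tested in all 4 groups. A gene counted as tested where its table held an adjusted p-value. *rpl-21* and *rpl-41.1* were not tested for Dam::BAF-1 in the hypodermis. *rpl-37* and *rpl-28* were tested in no group, and each has a single GATC site in its window. The bases around it, shown because the value of the gene rests on this site alone, lie outside any annotated exon, at −199 bases from the start of *rpl-37* (III:3528430-3528459, plus) and downstream of the end of *rpl-28* (V:12727137-12727166, minus).
rpl-37: cagactcgaaaaaGATCagtttgggaaagt
rpl-28: tcgacgaaaggtcGATCacgacattttagg
In 6 of the 12 columns *rpl-37* stood at the most frequent value of the column, and *rpl-28* did so in 4. That value was shared by 5345 to 15667 genes, tested or not, depending on the column, and the other 76 members had it 7 times in all.

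In every fusion group nearly all ribosomal protein genes lay below the median tested gene, and none was called above it. For Dam::BAF-1 in the hypodermis 70 of 74 tested members were below 0 (limma with Benjamini-Hochberg adjustment over all tested genes, FDR 0.05), compared with 24% of all tested genes. The mutant fusion gave 73 of 76 in this tissue, against 26.3% of all. Of the intestine, 75 of 76 members were below 0 for Dam::BAF-1, against 22.4%, and 72 of 76 for Dam::BAF-1(G12T), against 19.2%. Above 0 were 20.5%, 24.6%, 25.9% and 21.9% of all tested genes, in the same order. The median member stood at −2.70, −2.50, −3.31 and −2.82 on the log2 scale, again in this order, which is 6.50-, 5.67-, 9.95- and 7.06-fold below the median tested gene. For other protein-coding genes the median was 0.07, −0.02, −0.61 and −0.41, and 22.2%, 26%, 29.5% and 21.9% of them were called below 0. The median tested gene, the reference of these values, stood at the most frequent value of the column for Dam::BAF-1 rep1 in both tissues. The same held for Dam::BAF-1(G12T) rep2 and rep3 in the hypodermis. A ratio does not tell fewer fusion reads from more GFP::Dam reads.

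**Figure D1:**
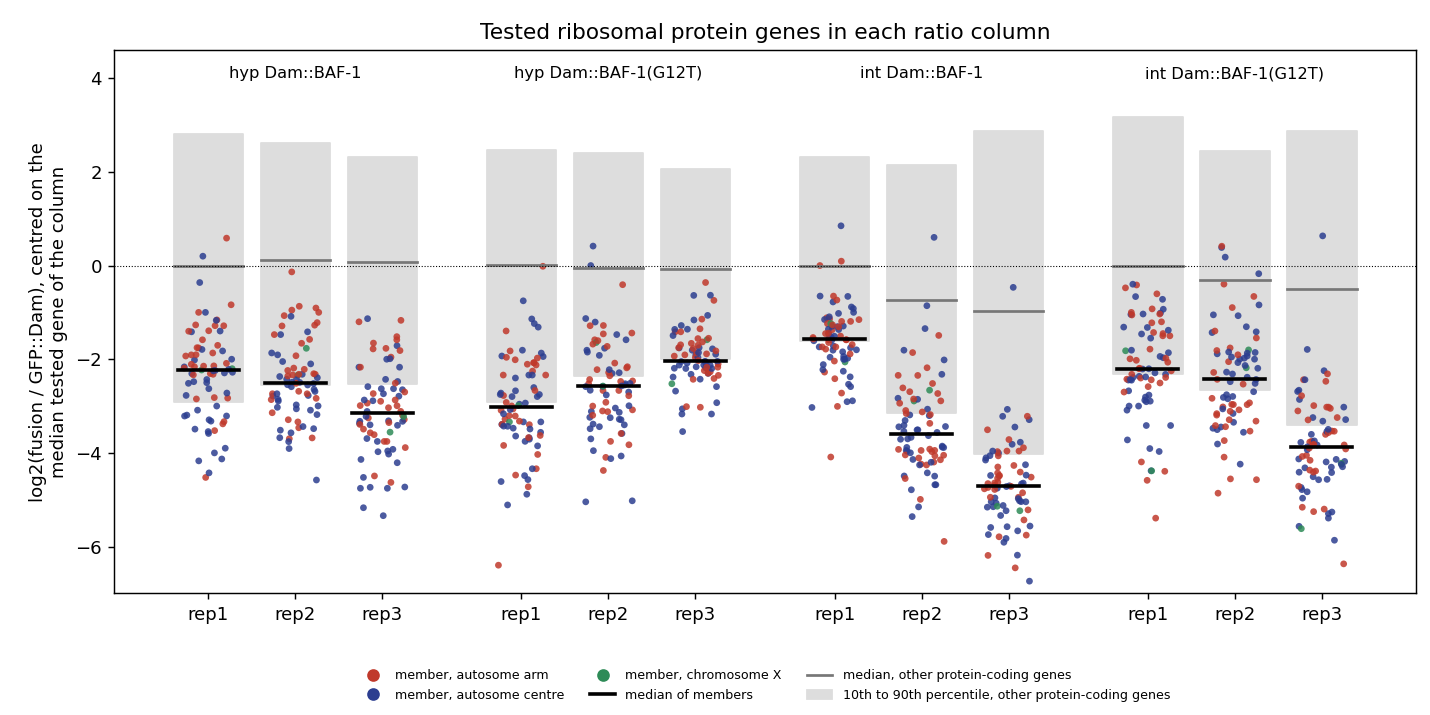
Centered log2 ratio of fusion over GFP::Dam of each tested ribosomal protein gene (points, colored by chromosome region) in the 12 ratio columns, with the median of the members (black bar) and the median and the 10th to 90th percentile of other protein-coding genes (gray). The member medians lie between −1.58 (intestine, Dam::BAF-1, rep1) and −4.71 (intestine, Dam::BAF-1, rep3), below the median of other protein-coding genes in all 12 columns.

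Of the 906 values of tested members in the 12 columns, 894 were below 0, and 67 of the 74 members tested everywhere had all 12 values below 0. Some of these were the most frequent value of their column. *rpl-17*, *rpl-33* and *rpl-36.A* had it, at −2.17, in rep3 of Dam::BAF-1 in the hypodermis, with 8904 genes sharing it. In rep1 of Dam::BAF-1(G12T), so did *rpl-23* in the hypodermis (−0.75) and *rps-27* in the intestine (−1.0). Being below 0 there does not set a member apart from the genes sharing that value. Members called below 0 in all 4 groups numbered 65, with 8 called in 3 groups and 3 in 2 groups. The lowest 10% of tested protein-coding genes held 44 of 74, 47 of 76, 62 of 76 and 59 of 76 members (hypodermis Dam::BAF-1 and Dam::BAF-1(G12T), then intestine in the same order).

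The windows of 67 members overlap another protein-coding gene, so part of their reads may belong to a neighbor. Of the members whose windows overlap none, 9 of 9, 11 of 11, 10 of 11 and 10 of 11 tested were below 0 in the same order of groups. Overlap was counted against the other genes without their 500 bp. Among these members, the windows of *rps-14* and *rpl-41.1* still overlap the window of another member. Of members with at least 5 GATC sites, 50 of 53, 52 of 53, 52 of 53 and 52 of 53 were below 0.

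The columns of a group differed in scale. Within the hypodermis the median member was at −2.24, −2.50 and −3.15 for Dam::BAF-1 and at −3.03, −2.58 and −2.04 for Dam::BAF-1(G12T). The intestine columns were at −1.58, −3.60 and −4.71 for Dam::BAF-1 and at −2.21, −2.43 and −3.88 for Dam::BAF-1(G12T). The columns with the lowest members in the intestine also had the widest spread over other protein-coding genes, with a SD of 2.56 in rep3 against 1.55 in rep1 for Dam::BAF-1. The same held in the hypodermis for Dam::BAF-1(G12T), with 2.05 in rep1 against 1.54 in rep3. For Dam::BAF-1 there it was reversed, with 1.83 in rep3, the lowest column, against 2.18 in rep1. The part of this spread in the member levels was not tested. The count for Dam::BAF-1 in the intestine rested on single columns. Without rep2 no gene of the table was called, although 72 of 76 members were at an unadjusted p under 0.05, and without rep3 46 members were called. By the read totals that the study states, rep2 of this fusion had the fewest reads at GATC sites of the 24 libraries. Its rep1 had the next fewest. The part of depth in these counts was not tested. For Dam::BAF-1(G12T) in the intestine 30 members were called without rep3. In the hypodermis between 50 and 71 members were called without any one column, with the 50 found for Dam::BAF-1 without rep3.

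The 5 members with the lowest mean over the 4 groups were all genes of the small subunit. *rps-15* (I:8815572-8816193), whose product lies in the head of the small subunit, was at −4.0, −3.03 and −5.34 for Dam::BAF-1 in the hypodermis, a mean of −4.12 ± 1.16 (SD, n = 3) with an adjusted p of 0.00129 (limma). It was the lowest member there, and stood at −3.47 ± 0.36, −3.70 ± 1.78 and −3.90 ± 1.80 in the other 3 groups, in the order hypodermis Dam::BAF-1(G12T), intestine Dam::BAF-1, intestine Dam::BAF-1(G12T). In the intestine with Dam::BAF-1 the lowest was *rps-26* (I:14759930-14760626), for a protein near the mRNA exit of the small subunit, with −1.51, −5.89 and −6.19. The first of these columns was far above the other two. *rps-13* and *rps-2*, whose upstream bases are given above, averaged −3.67 and −3.57 over the 4 groups, and *rps-30*, which in animals encodes a ubiquitin-like protein fused to S30, averaged −3.39. Each of these 5 was called in all 4 groups.

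*rpl-39* (V:7775742-7776079), a small protein of the exit tunnel, was the lowest hypodermis member for Dam::BAF-1(G12T) with −4.34, −4.10 and −3.01, followed closely by *rps-26* at −3.81 ± 1.28 and *rpl-26* at −3.78 ± 1.16. *rpl-39* and *rps-30* are neighbors whose windows overlap, so part of their reads is the same. In the intestine with Dam::BAF-1(G12T) the lowest member was *rpl-11.2* on the X chromosome (X:2241738-2242618), a protein that joins the 5S rRNA particle, with −4.38, −2.18 and −5.62. Next came *rps-22* at −3.94 ± 0.43 and *rps-15*. For Dam::BAF-1 the other low members were *rps-13* (−4.02 ± 0.78) and *rps-23* (−3.80 ± 0.67), a protein of the decoding center, in the hypodermis, and *rps-21* (−4.32 ± 1.51) and *rps-12* (−4.28 ± 1.53) in the intestine. *rps-12* was not called for Dam::BAF-1(G12T) in the intestine, where its 3 columns were at −0.40, −0.17 and −4.78. Among these neighbors in the order, the means differ by less than the SDs of their columns.

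*rps-6*, the substrate of S6 kinase in the TOR pathway, and *rpl-5*, which carries 5S rRNA, served as textbook members. *rps-6* was at −1.88 ± 0.82, −2.39 ± 0.63, −2.83 ± 1.10 and −2.74 ± 1.55 in the 4 groups (hypodermis Dam::BAF-1 and Dam::BAF-1(G12T), then intestine in the same order). *rpl-5* was at −3.30 ± 1.24, −3.56 ± 1.43, −3.27 ± 1.74 and −2.70 ± 1.77. Both were called below 0 in all 4 groups. By subunit, the medians for Dam::BAF-1 in the hypodermis were −2.70 over 43 large subunit genes and −2.70 over 31 small subunit genes, and in the intestine −3.16 over 45 and −3.43 over 31.

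**Figure D2:**
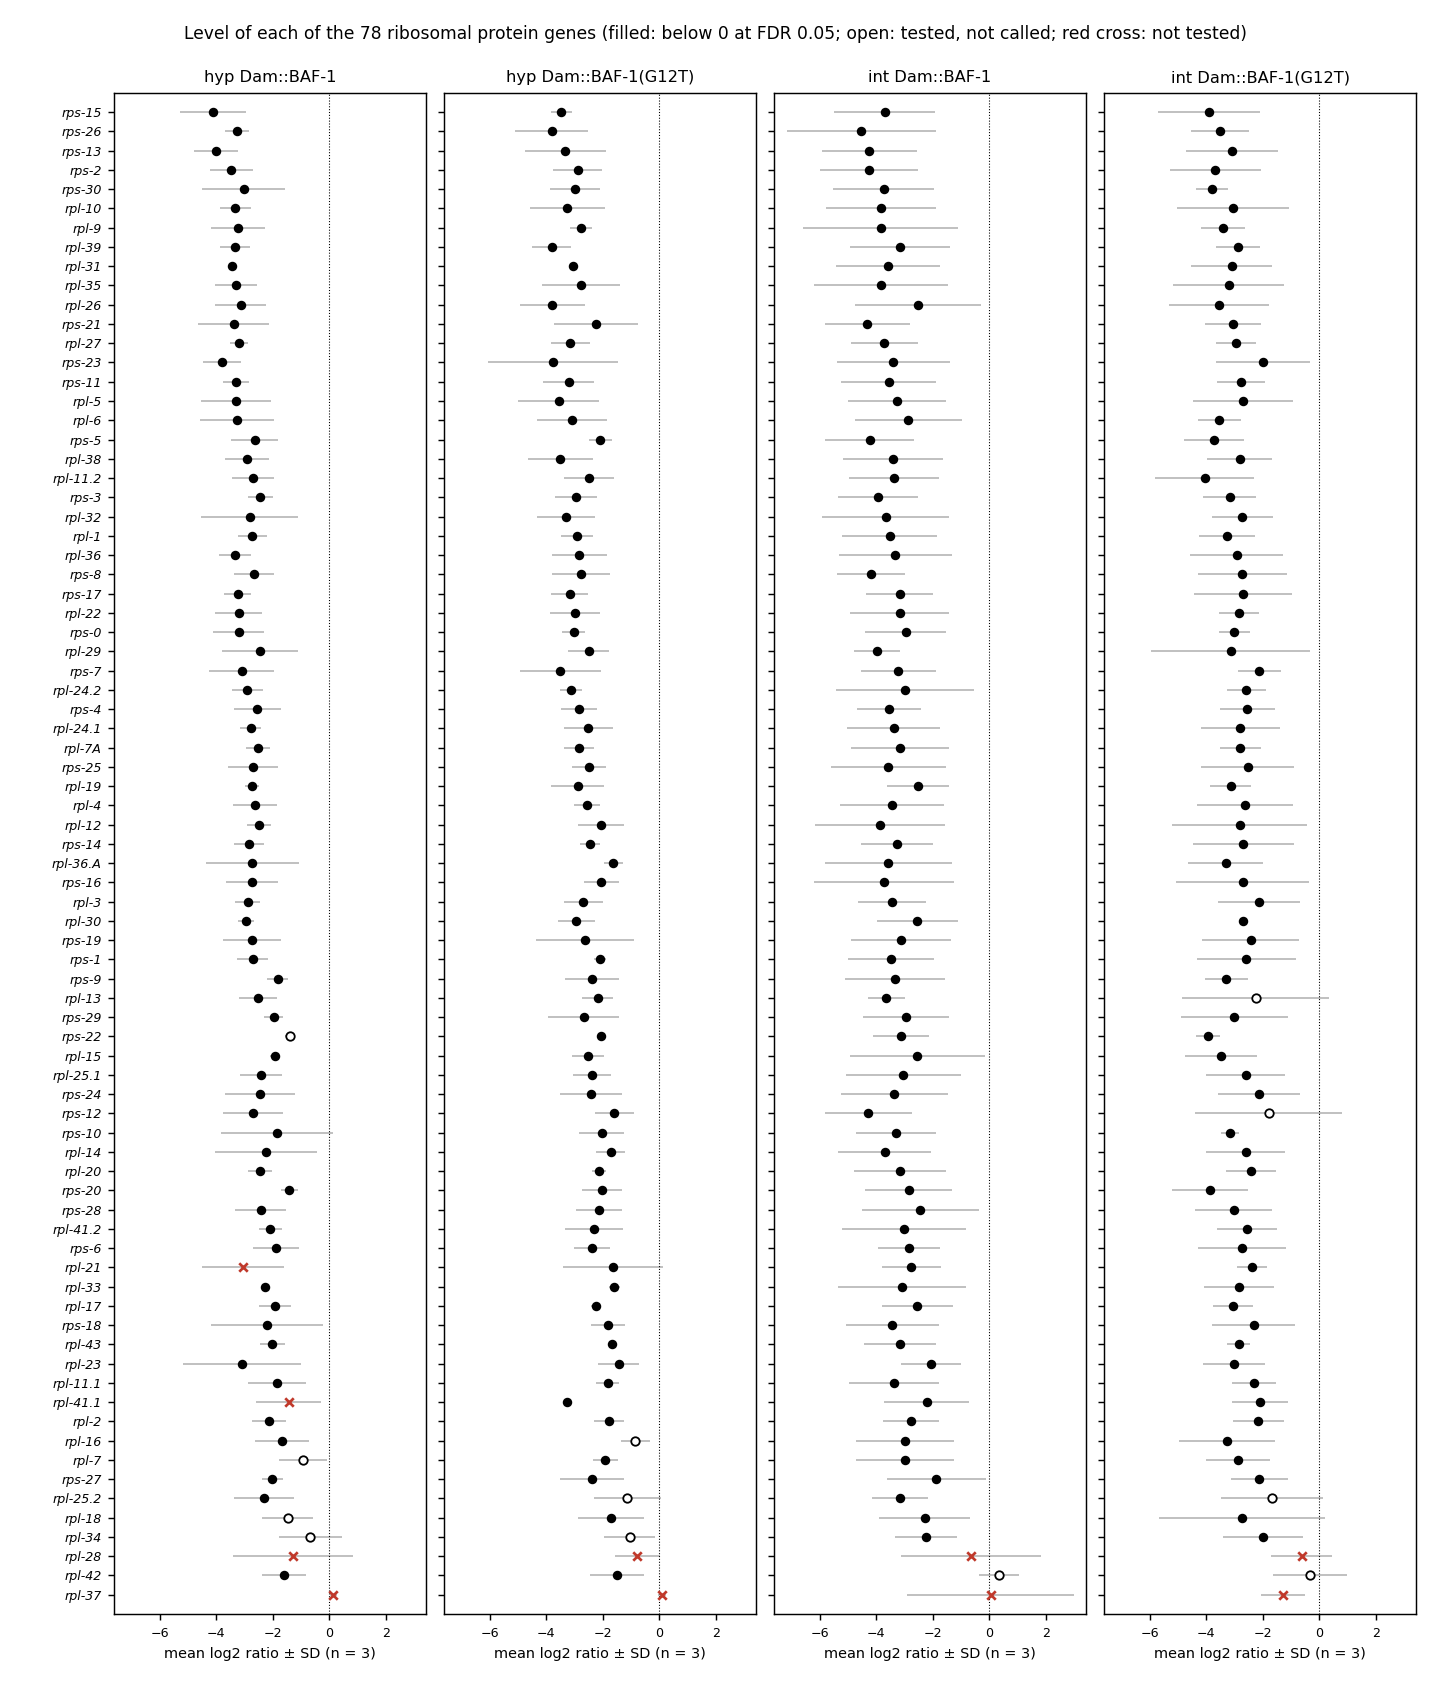
Mean centered log2 ratio ± SD of 3 replicates (x axis) for each of the 78 ribosomal protein genes (y axis, ordered by the mean over the 4 groups), in 1 panel per fusion group, with filled points below 0 at FDR 0.05, open points tested and not called, and red crosses not tested. *rps-15* heads the list, and *rpl-42* and the untested *rpl-37* and *rpl-28* end it.

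Some members share a number. *rpl-11.1* on chromosome V averaged −2.35 over the 4 groups and *rpl-11.2* on the X averaged −3.16. The pair *rpl-24.1* and *rpl-24.2* averaged −2.87 and −2.89, *rpl-25.1* and *rpl-25.2* −2.61 and −2.07, and *rpl-41.1* and *rpl-41.2*, adjacent genes with overlapping windows, −2.53 over the 3 groups in which *rpl-41.1* was tested and −2.49 over 4. *rpl-7* (−2.18) and *rpl-7A* (−2.83) share a number but encode different proteins. The counting of reads that match both copies is not described, so values of a pair may be mixed. *rpl-25.1* and *rpl-11.2* were the only members on the X chromosome, and both were below 0 in all 4 groups.

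Few members came near 0. For Dam::BAF-1 in the hypodermis *rpl-34* (IV:12268995-12269490), whose upstream bases are printed above, was highest with 0.58, −1.47 and −1.17, and *rpl-7* (I:111038-112417) followed with −0.84, −0.14 and −1.82. *rps-22* and *rpl-18*, at −1.39 ± 0.19 and −1.47 ± 0.90, were the other members not called there, with adjusted p-values of 0.0532 and 0.0548 (limma). With Dam::BAF-1(G12T) *rpl-16* (−0.85 ± 0.50), *rpl-34* (−1.05 ± 0.91) and *rpl-25.2* (−1.13 ± 1.17) were not called. All of these means were still negative. In the intestine *rpl-42*, *rps-27* (−1.88 ± 1.74) and *rpl-23* (−2.07 ± 1.06) were highest for Dam::BAF-1, and *rpl-42*, *rpl-25.2* (−1.67 ± 1.81) and *rps-12* (−1.79 ± 2.60) for Dam::BAF-1(G12T). *rpl-13*, with −0.66, −0.84 and −5.26, was the remaining member not called there.

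*rpl-42* (II:11092713-11094022), a protein of the large subunit, was the exception in the intestine. Its columns for Dam::BAF-1 were at 0.85, 0.60 and −0.47 there, a mean of 0.33 ± 0.70 with an adjusted p of 0.666 (limma), and for Dam::BAF-1(G12T) at −1.81, 0.18 and 0.63, a mean of −0.33 ± 1.30. In the hypodermis it was at −1.17, −2.49 and −1.13 for Dam::BAF-1 and at −1.31, −2.52 and −0.63 for Dam::BAF-1(G12T), and was called below 0 with both. Its window overlaps no other protein-coding gene and holds 7 GATC sites. Upstream lies *unc-53*, a long gene for a regulator of cell migration, which was at 0.89 ± 0.54 and 1.58 ± 0.79 in the intestine and at −1.09 ± 0.49 and −1.59 ± 0.56 in the hypodermis. The 2 kb bin just upstream of the one with the *rpl-42* start was at 0.88 ± 0.28 for Dam::BAF-1 in the intestine, and the bin with the start at 0.80 ± 0.35. From there the values fell to −1.45 ± 0.74 and −3.43 ± 1.75 in the following 2 bins. The second of these holds another member, *rpl-36.A*, which was at −3.57 ± 2.24.

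Between arms and centers these genes differed less than other genes did. In arms lay 33 members and in centers 43. Other protein-coding genes of the arms had medians of 1.22 and 1.09 (hypodermis, Dam::BAF-1 and Dam::BAF-1(G12T)) and of 0.54 and 0.77 (intestine), and those of the centers −1.16, −1.06, −1.68 and −1.43. Members of the arms stood at −2.45, −2.39, −3.17 and −2.82 and members of the centers at −2.89, −2.77, −3.33 and −2.80, in the same order. In each group the median of the arm members thus lay below that of other genes of the centers. In the arms 29, 31, 33 and 33 of 33 tested members were below 0, beside 5.82%, 9.11%, 15.6% and 11.1% of the other protein-coding genes there. In the centers the counts were 39 of 39, 40 of 41, 40 of 41 and 37 of 41, beside 40.8%, 45.1%, 47.7% and 36.7%.

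Column by column, the arm minus center difference of the members was 0.57, 0.38 and 0.33 for Dam::BAF-1 and 0.08, 0.24 and 0.19 for Dam::BAF-1(G12T) in the hypodermis. Intestine columns gave 0.07, 0.30 and 0.33 for Dam::BAF-1 and 0.34, −0.78 and 0.37 for Dam::BAF-1(G12T). It was thus above 0 in 11 of 12 columns, but small beside the differences of other protein-coding genes in the same columns, which ran from 1.26 to 3.15 without overlapping those of the members. No test was made over members. Members lay on all 6 chromosomes, 23 of them on I, and the chromosome medians for Dam::BAF-1 in the hypodermis ranged only from −2.98 (III) to −2.50 (IV).

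**Figure D3:**
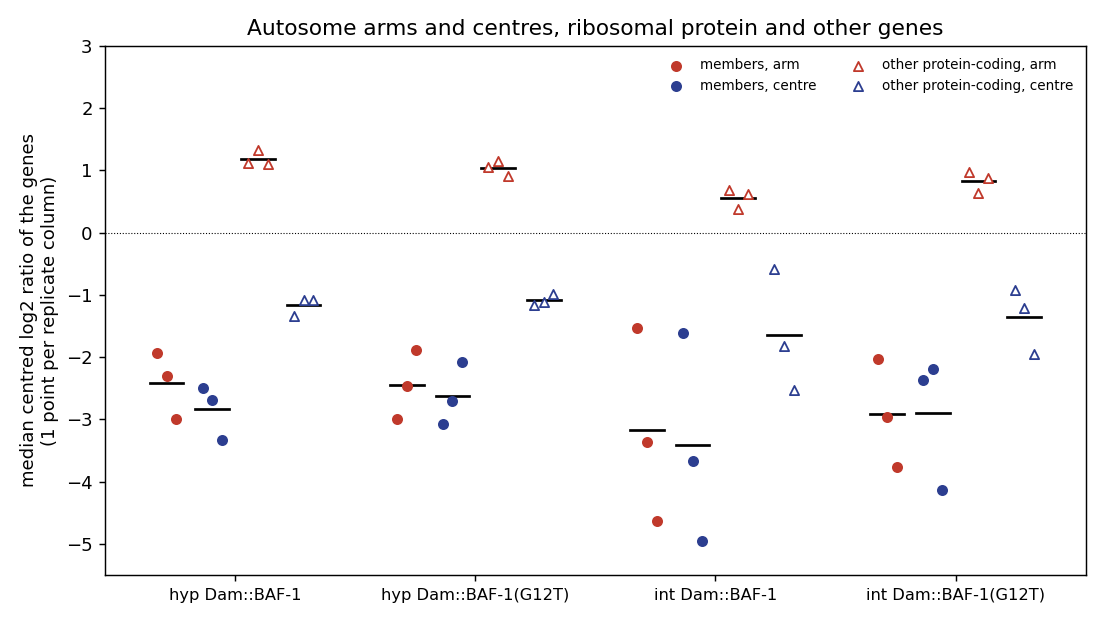
Median centered log2 ratio (y axis) of ribosomal protein genes (filled circles) and other protein-coding genes (open triangles) in autosome arms (red) and centers (blue), with 1 point per replicate column and a bar at the mean of the 3. Other genes of the arms lie above 0 in all 12 columns, and the ribosomal protein genes lie below 0 in arms and centers alike.

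The 2 kb bins, which are a separate table, gave the low values a width. At the bin that holds the start of an arm member, the mean was −2.27 ± 0.38 for Dam::BAF-1 and −2.20 ± 0.44 for Dam::BAF-1(G12T) in hypodermis columns (SD, n = 3) and −2.78 ± 1.03 and −2.58 ± 0.70 in intestine columns. For Dam::BAF-1 in the hypodermis it was −0.35 ± 0.13 at 4 kb upstream, and −0.78 and −0.22 at 4 and 6 kb downstream. At 16 kb upstream and downstream it was 0.67 ± 0.33 and 0.70 ± 0.22. The corresponding bins of other genes of the arms were at 0.86 at the start and at 0.97 and 0.98 at the 2 ends. Around members in the centers the mean for Dam::BAF-1 in the hypodermis was −2.85 ± 0.42 at the start and −1.13 ± 0.02 and −1.10 ± 0.13 at 16 kb, where other genes were at −1.17 and −1.16. In all 4 groups the 3 columns at the start of arm members lay below 0 and those at 16 kb upstream and downstream lay above 0. In the intestine the low values reached further, with −0.32 (Dam::BAF-1) and −0.57 (Dam::BAF-1(G12T)) at 10 kb upstream of arm members. At 16 kb upstream these were at 0.32 and 0.23, still below other genes of the arms, at 0.91 and 0.90.

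**Figure D4:**
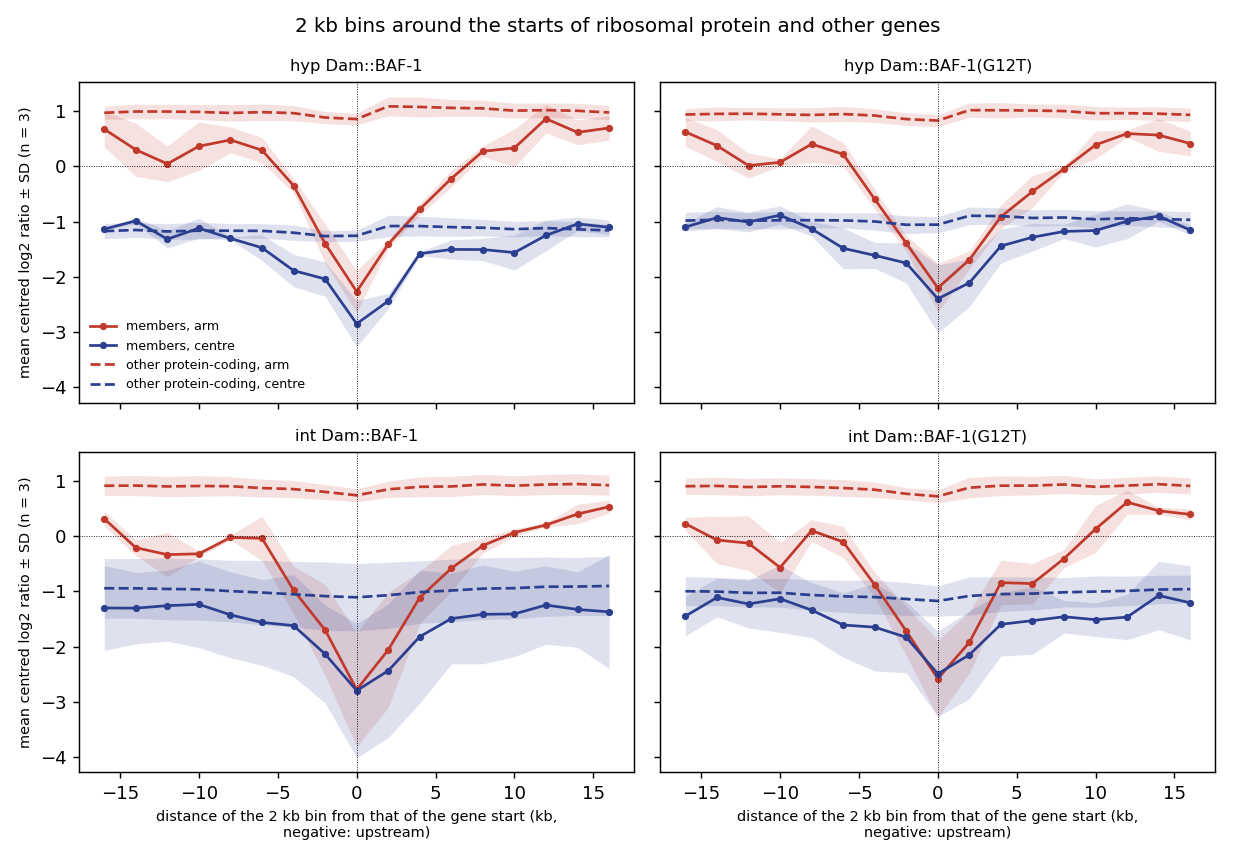
Mean centered log2 ratio ± SD of the 3 columns (y axis) of 2 kb bins by their distance in kb from the bin with the gene start (x axis, negative upstream), for ribosomal protein genes (solid) and other protein-coding genes (dashed) in arms (red) and centers (blue). For Dam::BAF-1 in the hypodermis the arm members drop from 0.67 at 16 kb upstream to −2.27 at the start, while other genes stay near their regional level.

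The comparison of the proteins asked whether the mutation changes where BAF-1 is found. No member passed the test between BAF-1(G12T) and BAF-1 in either tissue. In the hypodermis 0 of 74 members passed (limma, FDR 0.05), none was at an unadjusted p under 0.05, and 0% of all tested genes were called in either direction. The intestine gave the same counts for 76 members, again with 0% of all genes called. The median difference was 0.18 in the hypodermis, with 47 of 74 members higher with BAF-1(G12T), and 0.25 in the intestine, with 52 of 76 higher. Other protein-coding genes had medians of −0.03 and 0.15, with 9401 of 18035 and 7658 of 18644 of them lower with BAF-1(G12T). The standard error of a single member was 0.70 and 0.98 in the median, so that only large differences could have passed. *rpl-23* had the smallest p upward in the hypodermis, 1.73 ± 0.96 (SE), and downward in the intestine, −1.17 ± 0.86. The smallest p in the other direction belonged to *rpl-7* in the hypodermis, with −0.88 ± 0.67, and to *rps-12* in the intestine, with 2.28 ± 1.22, all with an adjusted p of 1 (limma).

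The direction changed between replicates. With columns of the same number set against each other, the median difference over members in the hypodermis was −0.69, 0.11 and 1.19, with 16, 40 and 63 of 74 members higher with BAF-1(G12T). Of other protein-coding genes 44.0%, 48.0% and 51.8% were higher there. In the intestine the median difference was −0.71, 0.59 and 0.50, with 27, 53 and 57 of 76 members higher, beside 54.2%, 57.3% and 52.6% of other protein-coding genes. With this centering rep1 went against the other two in both tissues. With the deposited centering the medians in the hypodermis were −0.50, −0.30 and 0.51, with 23, 22 and 56 of 74 members higher, so that rep3 stood alone there, beside 52.0%, 31.5% and 24.8% of other protein-coding genes higher. In the intestine they were then −0.40, 1.43 and 0.85, with 29, 71 and 63 of 76 members higher, beside 61.9%, 81.0% and 72.2% of other protein-coding genes. The medians of the fits were −0.12 and 0.75 with the deposited centering. Leaving out 1 column at a time, they ran from −0.11 to 0.49 in the hypodermis, below 0 without rep3 of either protein, and from −0.44 to 1.03 in the intestine, below 0 without rep3 of Dam::BAF-1 or rep1 of Dam::BAF-1(G12T). No member passed a test of whether the difference between the proteins differs between the tissues (interaction in limma, 0 of 74 at FDR 0.05 and 0% of all genes, 1 member at an unadjusted p under 0.05). This test was added after the data had been seen.

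For Dam::BAF-1 0 of 74 members passed the test between hypodermis and intestine (limma, FDR 0.05, 1 at an unadjusted p under 0.05), while 5.56% of all tested genes were lower and 2.62% higher in the hypodermis. With Dam::BAF-1(G12T) it was 0 of 76 (3 at an unadjusted p under 0.05), beside 5.03% and 2.29%. Of other protein-coding genes 3.53% were lower and 3.33% higher for Dam::BAF-1, and 3.43% and 2.7% for Dam::BAF-1(G12T). The median differences, hypodermis minus intestine, were 0.34 and 0.25, with medians over other protein-coding genes of 0.10 and 0.06 and over all tested genes of −0.22 and −0.13. Their sign rested on single columns. Leaving out 1 column at a time, the first ran from −0.21, without rep3 in the intestine, to 1.00, without rep1 there. The second ran from −0.33, without rep3 in the intestine, to 0.60, and was −0.01 without rep3 in the hypodermis. *rpl-42* had the smallest p for Dam::BAF-1, −2.29 ± 0.77 (SE) with an adjusted p of 0.0727 (limma), and *rpl-7* the smallest upward, 1.69 ± 0.87. For Dam::BAF-1(G12T) these were *rpl-16*, 2.37 ± 0.87 with an adjusted p of 0.114 (limma), and *rps-7*, −1.42 ± 0.85.

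With both proteins together, 6 columns against 6 from the same data, *rpl-42* was lower and *rps-22* higher in the hypodermis, 2 of 74 members, whereas 16.9% of all tested genes were lower and 12% higher. Of other protein-coding genes 12.5% were lower and 15.2% higher. The difference of *rpl-42* was −1.74 ± 0.56 (SE) with an adjusted p of 0.0265 (limma), and its highest column in the hypodermis, −0.63, lay above the lowest in the intestine, −1.81. That of *rps-22* (III:1950535-1951425, in an arm) was 1.61 ± 0.43 with an adjusted p of 0.00961 (limma). Its hypodermis columns were at −1.39, −1.58, −1.20, −2.11, −2.16 and −1.93 and its intestine columns at −2.04, −3.37, −3.96, −4.39, −3.54 and −3.90. Of the intestine columns only rep1 of Dam::BAF-1 reached into the range of the hypodermis. The window of *rps-22* overlaps 2 other protein-coding genes. Higher in the hypodermis were 49 of 74 members, while 8502 of 17939 other protein-coding genes were lower there. The median difference over members was 0.30, with a median of −0.18 over all tested genes and of 0.10 over other protein-coding genes. Without any one column this median ran from 0.04 (without rep3 of Dam::BAF-1 in the intestine) to 0.63 (without rep1 of it), and it was 0.10 without rep3 of Dam::BAF-1(G12T) in the intestine. Between 1 and 6 members were then called, 6 without rep1 of Dam::BAF-1 in the intestine and 1 without rep2 of it, without rep3 of Dam::BAF-1(G12T) in the intestine or without rep2 of Dam::BAF-1(G12T) in the hypodermis. *rpl-42* was also not called without rep2 of Dam::BAF-1 in the hypodermis. As the authors centered the columns, 5 members were higher in the hypodermis and *rpl-42* was not called. In this comparison 7 of 10 genes of a hypodermis check list were lower in the hypodermis (median −1.84), and 5 of 10 genes of an intestine check list were higher there (median 1.62). These lists are no independent check. They include *mua-6* and *dod-3*, which the study shows as examples of GFP::Dam signal that differs between the tissues. Also in them are *dpy-7* and *nhx-2*, whose promoters drove the FLP recombinase.

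**Figure D5:**
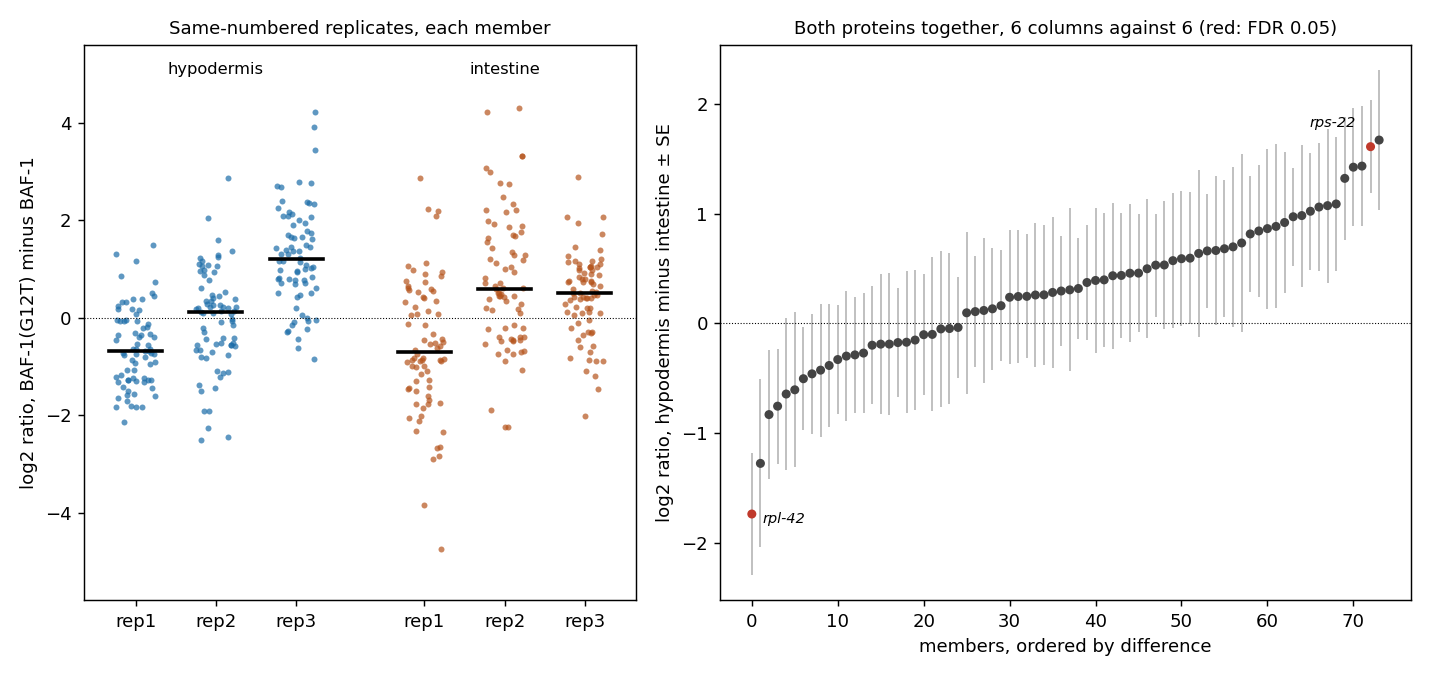
Left, difference in centered log2 ratio between BAF-1(G12T) and BAF-1 for each ribosomal protein gene in columns of the same replicate number, with medians (bars) at −0.69, 0.11 and 1.19 (hypodermis) and −0.71, 0.59 and 0.50 (intestine). Right, hypodermis minus intestine difference ± SE of each member over both proteins, ordered by size, in which *rpl-42* (−1.74) and *rps-22* (1.61) passed an FDR of 0.05.

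The order of the members was kept best between the proteins in the hypodermis. Across 74 members the means for Dam::BAF-1 and Dam::BAF-1(G12T) had a Pearson r of 0.72 there (Spearman 0.75). In the intestine r was 0.43 over 76 members (Spearman 0.21), and 0.20 without *rpl-42*. Between the tissues r was 0.47 for Dam::BAF-1 and 0.26 for Dam::BAF-1(G12T). These are descriptions across genes, which share columns and in part reads and are no independent replicates. The mean over the 4 groups had a Spearman correlation of −0.11 with the number of GATC sites in the window over the 74 members and of 0.06 with gene length.

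In other lists of the translation apparatus the share of genes called below 0 varied, beside 24%, 26.3%, 22.4% and 19.2% of all tested genes in the 4 groups. The stalk proteins *rla-0*, *rla-1* and *rla-2*, which recruit elongation factors, and *ubl-1*, in which ubiquitin is fused to S27a, were not members by symbol, and 3, 4, 4 and 4 of these 4 were below 0 (hypodermis Dam::BAF-1 and Dam::BAF-1(G12T), then intestine in the same order). *rla-2* was the exception for Dam::BAF-1 in the hypodermis with −0.89. The elongation factor list, 6 genes, was below 0 in all 4 groups, with medians of −3.02, −2.59, −3.69 and −3.13. Among them *eef-1A.1*, which delivers aminoacyl-tRNA, was at −3.99 for Dam::BAF-1 in the hypodermis, and *eef-2*, which drives translocation, at −2.79. Of 25 initiation factor genes 13, 13, 20 and 11 were below 0, and of 20 tRNA synthetase genes 9, 10, 14 and 6.

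Mitochondrial ribosomal protein genes, which encode the other ribosome of the cell, were less uniform, with 23 of 55, 26 of 59, 35 of 62 and 31 of 62 tested genes below 0 and medians of −1.18, −0.98, −1.90 and −1.75. Of 9 tested genes for subunits of RNA polymerase I and III, which transcribe rRNA and tRNA, 2, 4, 5 and 3 were below 0, and the first of these counts is near the share of all tested genes, 24%. In these lists 2 initiation factor genes and 2 mitochondrial genes were above 0 in each hypodermis group, and 1 mitochondrial gene for Dam::BAF-1 in the intestine. The lists were described by counts, and the differences between them were not tested.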

How the data were processed

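DamID libraries of *C. elegans* L4 larvae (400 ng of genomic DNA, 22 PCR cycles) were mapped by the authors to ce11, and the deposited tables give per gene, extended by 500 bp at each end, and per 2 kb bin the log2 ratio of fusion over GFP::Dam for each replicate, with a pseudocount of 1 and centered by the authors on the mean over features. The deposited adjusted p-values (DESeq2, per the labels) were used only for their presence, which defined a tested gene, and the authors' fold changes were not used. A count test was not run, since the values are ratios. No per-sample column was left without a sample.

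Columns were centered again on the median of tested genes. Levels and differences were tested in limma 3.58.1 (R 4.3.3, robust empirical Bayes) with Benjamini-Hochberg adjustment over all tested genes and an FDR threshold of 0.05. The procedure was tested on simulated data. Symbols, positions and GATC sites came from WBcel235 (Ensembl 115) and its RefSeq sequence, and arm borders from the study's methods. The text names the lowest and highest members per group and over the groups, textbook members, members sharing a number, and the member with the smallest p in each direction of each comparison. Members not called, *rpl-17*, *rpl-33*, *rpl-37*, *rpl-28* and *rpl-36.A* were named after their values were seen. The members and lists were chosen with earlier results of these data known. Within a tissue, columns of the same number deviated together (r from 0.24 to 0.45 over tested genes), so they were set against each other in the description by replicate. The reported tests between proteins were unpaired, and the pairing entered only in the replicate block alternative. Alternatives were the centering, the filter, plain empirical Bayes, the 2 kb bin of the start, a replicate block and leaving out each column.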

Additional observations from a re-analysis of the deposited data

Results flagged for a closer look

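*rpl-42* differed between the tissues over both proteins, with −1.74 ± 0.56 (SE, hypodermis minus intestine) and an adjusted p of 0.0265 (limma), 6 columns against 6. Across 18 alternative settings its adjusted p ranged from 0.00485 to 0.104 (limma) and it was called in 12 of them.

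*rps-22* differed in the other direction, with 1.61 ± 0.43 (SE) and an adjusted p of 0.00961 (limma). It was called in all 18 alternative settings, with adjusted p-values from 0.00546 to 0.0311 (limma). Its window overlaps 2 other protein-coding genes, so part of its reads may belong to a neighbor. No formal rule for single columns far from the rest was applied to groups of 3 columns, and each column was only left out in turn.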

How the results depend on the processing

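Of the main values recomputed under alternatives, 228 stayed close to the reported ones and 20 moved, and of the values of named genes 1202 stayed, 97 lost and 8 gained a call and 3 changed sign. Without any one column the percent of members below 0 was 67.6 to 94.6 (hypodermis, Dam::BAF-1), 89.5 to 93.4 (hypodermis, mutant), 0 to 98.7 (intestine, Dam::BAF-1) and 39.5 to 96.1 (intestine, mutant). With centering on protein-coding genes 1 member (*rpl-42*) differed between tissues for Dam::BAF-1. Without any one column 0 to 1 did so for Dam::BAF-1(G12T). Over both proteins 5 members were called with the authors' centering, 1 without the filter, 4 among genes off the most frequent value and 1 to 6 without any one column. With a replicate block 4 members were called over both proteins. Between tissues, however, columns share only a number (r from −0.10 to 0.08), and in the protein comparisons the block left 0 members called. The arm minus center difference in 2 kb bins was 0.16 and 0.13 in the hypodermis and −0.091 for Dam::BAF-1 in the intestine. Without any one column it was 0.24 to 0.49 for the mutant in hypodermis columns. In its 2 kb bin *rps-27* was at 1.41 and 0.68 in the hypodermis, and *rpl-42* was at −0.81 to 0.41 for Dam::BAF-1(G12T) in the intestine without any one column. The causes were not tested. With 3 columns a group, only large differences could pass, and the limit that depth sets on a gene could not be computed from ratios.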
